A study of Mus musculus with 3 samples.

Results

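The LMO, LDB and SSBP genes encode nuclear cofactors that carry no DNA-binding homeodomain of their own and work through LIM homeodomain and related transcription factors. The 9 members, Lmo1, Lmo2, Lmo3, Lmo4, Ldb1, Ldb2, Ssbp2, Ssbp3 and Ssbp4, were taken by matching Ensembl identifiers to mouse symbols among the 41388 genes counted in each library, and all 9 were found. They were measured by RNA sequencing in 3 libraries, B, C and D, of dorsal root ganglion cells sorted for EGFP from C57BL/6 mouse embryos at 12.5 days post coitum. B pooled 340 ganglia from 17 embryos (10 male and 7 female), C 300 ganglia from 15 embryos and D 60 ganglia from 3 embryos, of segments T11 to S1 and of both sexes per the labels. All embryos carried a Ret reporter, written as Tg(Ret-EGFP)SJ/ in the sample labels and as EGFP inserted into 1 Ret allele in the series text, a conflict that was not resolved. The libraries form 1 group with no second condition, and each is a pool.

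LDB proteins are adaptors that dimerise and bind the LIM domains of LIM homeodomain factors through a short interaction region, so that factors bound at separate DNA sites can be brought together. LMO proteins consist of little more than paired LIM domains; they bind LDB in the same way, and can thereby either compete with LIM homeodomain factors or bridge LDB to bHLH and GATA proteins. SSBP proteins (SSDP in flies) bind LDB and protect it from degradation. In sensory ganglia the LIM homeodomain factor ISL1 is required for the normal development of sensory neurons, and LDB with SSBP is also part of a Wnt-responsive complex with PYGO and BCL9 proteins.

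Members of a family resemble each other in their coding sequence, which bears on whether reads can be assigned to 1 gene. In the longest GENCODE coding sequence of each gene, identity over aligned bases was 76.3% for Lmo1 and Lmo3, 61.9% to 67.8% for the other LMO pairs, 75.1% for Ldb1 and Ldb2, and 71.0% to 75.6% for the SSBP pairs. The stretches below hold the longest run shared by the closest pair of each family, in capitals, with 30 coding bases on either side in lower case. The run was 20 bases in Lmo1 and Lmo3, 20 in Ssbp2 and Ssbp3 and 23 in Ldb1 and Ldb2, and no pair of a family shared a longer coding run.
Lmo1: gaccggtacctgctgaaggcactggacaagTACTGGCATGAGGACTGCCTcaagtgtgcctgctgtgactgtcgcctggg
Lmo3: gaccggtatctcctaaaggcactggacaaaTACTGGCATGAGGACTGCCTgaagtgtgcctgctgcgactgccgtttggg
Ssbp2: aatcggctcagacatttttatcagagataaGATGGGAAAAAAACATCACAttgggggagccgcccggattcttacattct
Ssbp3: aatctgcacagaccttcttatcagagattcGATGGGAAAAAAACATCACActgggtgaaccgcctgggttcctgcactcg
Ldb1: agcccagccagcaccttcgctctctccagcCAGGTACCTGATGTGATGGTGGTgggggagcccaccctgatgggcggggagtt
Ldb2: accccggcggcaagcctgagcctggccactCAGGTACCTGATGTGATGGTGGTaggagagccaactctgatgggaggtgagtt

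The promoters of the highest and the lowest member, and of Lmo1, are shown because they span the range of CG content among the members and, for Lmo1, hold a homeodomain motif. Each run is the 250 bases before the RefSeq start (GRCm38.p6, minus strand), with CG pairs in capitals and, in Lmo1, also the motif TAATTA. The window of Lmo4 is chr3:144205256-144205505, that of Lmo3 chr6:138581969-138582218 and that of Lmo1 chr7:109175208-109175457.
Lmo4: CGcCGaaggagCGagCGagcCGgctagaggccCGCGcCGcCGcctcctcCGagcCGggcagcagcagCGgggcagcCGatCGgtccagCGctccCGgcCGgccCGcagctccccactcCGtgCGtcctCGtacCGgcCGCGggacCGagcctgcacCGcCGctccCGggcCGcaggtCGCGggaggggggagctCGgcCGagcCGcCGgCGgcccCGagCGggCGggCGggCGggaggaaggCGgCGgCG
Lmo3: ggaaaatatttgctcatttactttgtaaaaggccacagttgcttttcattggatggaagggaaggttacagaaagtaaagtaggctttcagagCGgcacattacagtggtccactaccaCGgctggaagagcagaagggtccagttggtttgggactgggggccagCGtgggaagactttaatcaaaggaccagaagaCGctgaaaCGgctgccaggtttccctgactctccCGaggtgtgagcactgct
Lmo1: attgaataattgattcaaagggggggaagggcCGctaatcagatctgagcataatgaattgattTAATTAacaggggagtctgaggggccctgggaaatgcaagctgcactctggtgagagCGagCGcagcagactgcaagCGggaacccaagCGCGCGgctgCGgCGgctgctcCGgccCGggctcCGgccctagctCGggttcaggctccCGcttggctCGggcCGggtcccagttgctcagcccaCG

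The Lmo4 window held 44 CG pairs at 82.4% GC, the Lmo3 window 6 at 50% and the Lmo1 window 17 at 61.2%; over 32851 RefSeq windows of the same length the medians were 6 CG pairs and 52.4% GC. Lmo3, the lowest member, was the only one of the 7 members with a RefSeq entry whose window lay at the median, since Ldb1, Ssbp2, Ssbp3 and Ssbp4 held 24 to 43 CG pairs. TAATTA, the core recognised by many homeodomain proteins (its own reverse complement), was found once among the 7 windows, 186 bases before the Lmo1 start, and 4.84% of all windows held it. The motif AGATAA, of the kind bound by zinc finger partners of LMO proteins, was in none of the 7 windows on either strand, and 9.99% of all windows held it. The E-box CAGATG, of the kind bound by bHLH proteins, was in none either, and 14.4% of all windows held it. Lmo2 and Ldb2 had no entry. The RefSeq starts used for Ssbp2 and Ssbp3 lay downstream of the start of the counted gene, so their windows fall inside its span. Lmo1, Lmo4, Ldb1 and Ssbp3 had several RefSeq starts, of which that nearest to the GENCODE gene start was taken.

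Depth lay between 11666241 counts (C) and 20966139 counts (D). Neuron markers were detected (1 TPM or more in every library) for 8 of 8 and sensory neuron markers for 6 of 6. Glia and Schwann cell precursor markers were detected for 6 of 6, erythroid markers for 5 of 8, sympathetic and macrophage markers for 4 of 6 each, mesenchyme markers for 3 of 6, motor neuron markers for 1 of 4 and endothelium markers for 0 of 6. In such bulk libraries fewer cells of a type and less RNA per cell cannot be told apart. TPM divides counts by gene length, scales each library to the same total and is used to compare genes within a library. It is not a neutral scale between libraries here: relative to counts scaled by TMM (trimmed mean of M-values), TPM stood 0.66 higher on the log2 scale in D than in B for every gene, and 0.09 lower in C. Levels between libraries are therefore also given as TMM-scaled CPM (counts relative to the library total, without gene length).

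Of the 9 members, 8 were detected; over all genes of the files the share was 28.7%. Lmo4, Ssbp3 and Ssbp2 were the most abundant in the mean, and Lmo3 was the member that stayed under 1 TPM. Lmo4 averaged 129.7 ± 90.4 TPM (SD, n = 3), Ssbp3 97.6 ± 74.8, Ssbp2 59.6 ± 8.05 and Lmo1 46.3 ± 26.5 TPM. Ssbp4 averaged 25.02 ± 37.8, Ldb1 15.5 ± 1.5, Ldb2 13.9 ± 10.9, Lmo2 3.09 ± 0.83 and Lmo3 0.29 ± 0.15 TPM. Without D the means of Lmo4, Ssbp3 and Ldb2 were 79.0, 54.9 and 7.62 TPM. The Ssbp4 mean rests on C, without which it was 3.20 TPM, and by its median of 3.76 TPM Ssbp4 would stand below both LDB genes.

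**Figure D1:**
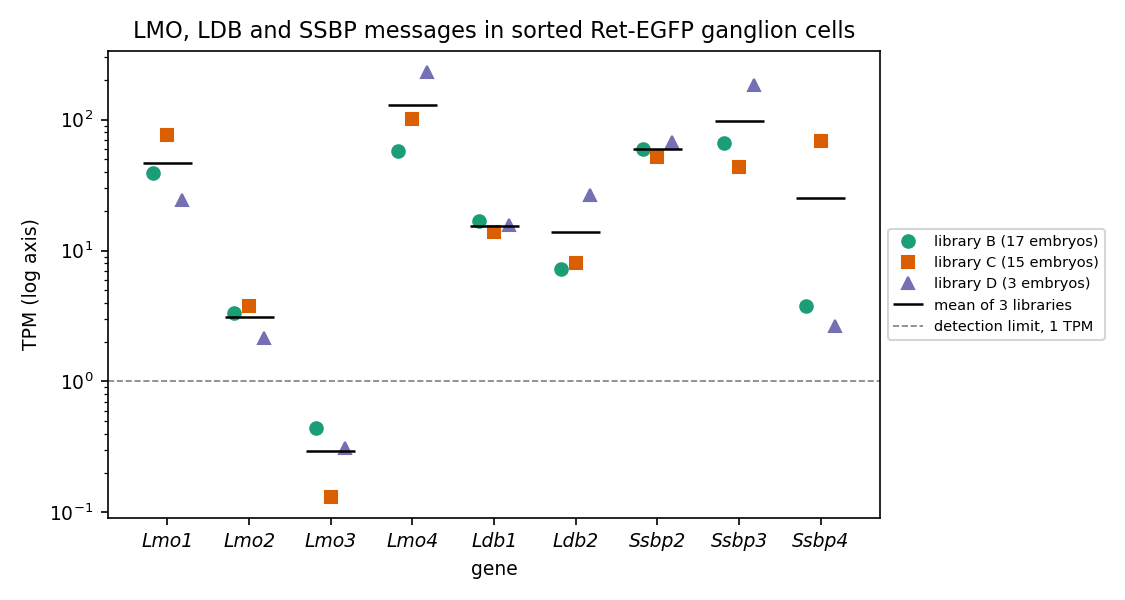
TPM of the 9 cofactor genes on a log axis, with a symbol for each of the 3 libraries, a bar at their mean and a dashed line at 1 TPM. Lmo3 lies below the line in all 3 libraries, Ldb1 and Ssbp2 have their 3 symbols close together, and Ssbp4 reaches 68.7 TPM in C against 3.76 in B and 2.64 in D.

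Among the LMO genes, Lmo4 and Lmo1 made up nearly all of the message. Lmo4, whose product binds LDB1 and the nuclear proteins DEAF1 and CtIP, was measured at 57.5 TPM in B, 101 TPM in C and 231 TPM in D, from 1710, 1987 and 5869 counts. D was highest and B lowest. On the TMM-scaled CPM scale the order was the same, with 98.4, 183 and 251 CPM. The gene lies on chromosome 3 (ENSMUSG00000028266, 144188530 to 144205220, GRCm38, minus strand), and its 5 counted exon blocks share no bases with another gene.

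Lmo1, first known from translocations in T cell leukaemia, ran in another order. It stood at 39.0 TPM in B, 75.7 TPM in C and 24.2 TPM in D (377, 486 and 200 counts), so that C was highest and D lowest on both scales. Its counted model (chromosome 7, 109138572 to 109170308) ended 4899 bases short of the RefSeq start shown above and held 69.0% of the exon bases of the GENCODE model. Exon bases between that end and the RefSeq start are not in its counts.

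Lmo2, a partner of TAL1 and GATA factors in blood and endothelial cells, was measured at 3.33 TPM in B, 3.77 TPM in C and 2.16 TPM in D (65, 49 and 36 counts). The exact Poisson intervals, which cover counting error only, were 2.57 to 4.24, 2.79 to 4.99 and 1.51 to 2.99 TPM, and overlapped in all 3 libraries on the TPM scale. As TMM-scaled CPM Lmo2 stood at 3.74, 4.52 and 1.54, and there the interval of D (1.08 to 2.13) lay below those of B (2.89 to 4.77) and C (3.34 to 5.98). Markers of cells known for Lmo2 were present at differing levels. The 8 erythroid markers summed to 2793 TPM in B, 1405 TPM in C and 399.9 TPM in D, and the 6 endothelium markers to 7.07, 1.68 and 4.21 TPM; no marker of these lists was at 0 in all libraries. Of its blood partners Tal1 was counted 10, 3 and 1 times, Lyl1 3, 4 and 0 times, and Gata1 125, 20 and 0 times, in the order B, C, D. The part of these cells in the Lmo2 level was not tested.

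Lmo3, the closest relative of Lmo1, was counted 20 times in B, 4 times in C and 12 times in D. These correspond to 0.44, 0.13 and 0.31 TPM, and the highest upper Poisson limit was 0.68 TPM, in B. Within each library Lmo1 exceeded Lmo3 by a log2 difference of 5.90 to 8.35 in 3 of 3 libraries, with a mean of 6.81 ± 1.34 (SD, n = 3, on log2(TPM + 0.1)). The longest coding run that both genes share was the 20 bases shown above.

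Of the summed LMO TPM, Lmo4 took 57.3% in B, 55.8% in C and 89.6% in D, and Lmo1 38.9%, 42.0% and 9.40%. B and C were thus alike in the makeup of the LMO messages, and D stood apart. The shares are not corrected for differences between libraries that follow gene length. With such a trend removed, the edgeR log2 ratio of D to B and C went from -1.96 to -1.37 for Lmo1. For Lmo4 it went from 0.83 to 0.54, while the median over all genes tested went from -0.02 to -0.31. In log2 terms Lmo4 exceeded Lmo1 by 0.56 in B, by 0.41 in C and by 3.25 in D. The sign was the same in 3 of 3 libraries, but the mean of 1.41 was smaller than its SD of 1.60, with D the farthest from the mean.

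The LDB genes were level with each other in the mean and traded places between libraries. Ldb1, the adaptor needed widely in development, was measured at 16.8 TPM in B, 13.9 TPM in C and 15.7 TPM in D (544, 298 and 434 counts). It had the narrowest range of the detected members, 1.21-fold from lowest to highest TPM, and 4.52% of detected genes had a smaller one. As TMM-scaled CPM it stood at 31.3, 27.5 and 18.5, a range of 1.69-fold with D lowest, so the position of D depends on the scale. The model lies on chromosome 19 (46032593 to 46045214), where 4.94% of its counted bases overlap Pprc1 on the opposite strand.

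Ldb2, its paralog, was at 7.18 TPM in B, 8.05 TPM in C and 26.5 TPM in D (161, 120 and 507 counts), with B and C close and D above both, also as TMM-scaled CPM (9.26, 11.1 and 21.7). Ldb1 made up 70.1% of the LDB messages in B and 63.3% in C, and 37.3% in D. The log2 difference of Ldb1 over Ldb2 was accordingly 1.22, 0.78 and -0.75, with a mean of 0.42 ± 1.03 (SD, n = 3). The 2 genes did not differ beyond the spread between libraries.

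Of the SSBP genes, which are not related in function to the mitochondrial protein that Ssbp1 encodes, Ssbp2 had the narrowest range. It was measured at 59.3 TPM in B, 51.7 TPM in C and 67.8 TPM in D (4258, 2470 and 4162 counts), a range of 1.31-fold, and 8.5% of detected genes had a smaller one. As TMM-scaled CPM it was 245, 228 and 178, a range of 1.38-fold with D lowest instead of highest. Exons of 4833422C13Rik on the opposite strand cover 22.2% of the counted Ssbp2 bases; that gene had 2, 11 and 14 counts. Without strand information reads from the shared bases cannot be assigned with certainty.

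Ssbp3, the SSBP gene needed with LDB1 in head formation, was at 66.3 TPM in B, 43.6 TPM in C and 183 TPM in D (3934, 1722 and 9281 counts). D was highest and C lowest on both scales (226, 159 and 397 as TMM-scaled CPM). Ssbp3 exceeded Ssbp2 in B and D and fell below it in C, with log2 differences of 0.16, -0.25 and 1.43, so the pair did not differ beyond the spread.

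Ssbp4 was counted 50 times in B, 607 times in C and 30 times in D, or 3.76, 68.7 and 2.64 TPM. The Poisson intervals were 2.79 to 4.96, 63.3 to 74.4 and 1.78 to 3.77 TPM, so B and D overlapped on the TPM scale and C lay far above both. As TMM-scaled CPM it was 2.88, 56.0 and 1.28, with C again far above, and the intervals of B (2.13 to 3.79) and D (0.865 to 1.83) did not overlap. From lowest to highest TPM Ssbp4 varied 26.0-fold, and 99.7% of detected genes had a smaller range. It made up 41.9% of the SSBP messages in C, and 2.91% in B and 1.04% in D. Its counted model (chromosome 8, 70597491 to 70608314) held 1474 bases, which is 46.6% of the exon bases of the GENCODE model, and its longest transcript had 64.3% GC.

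**Figure D2:**
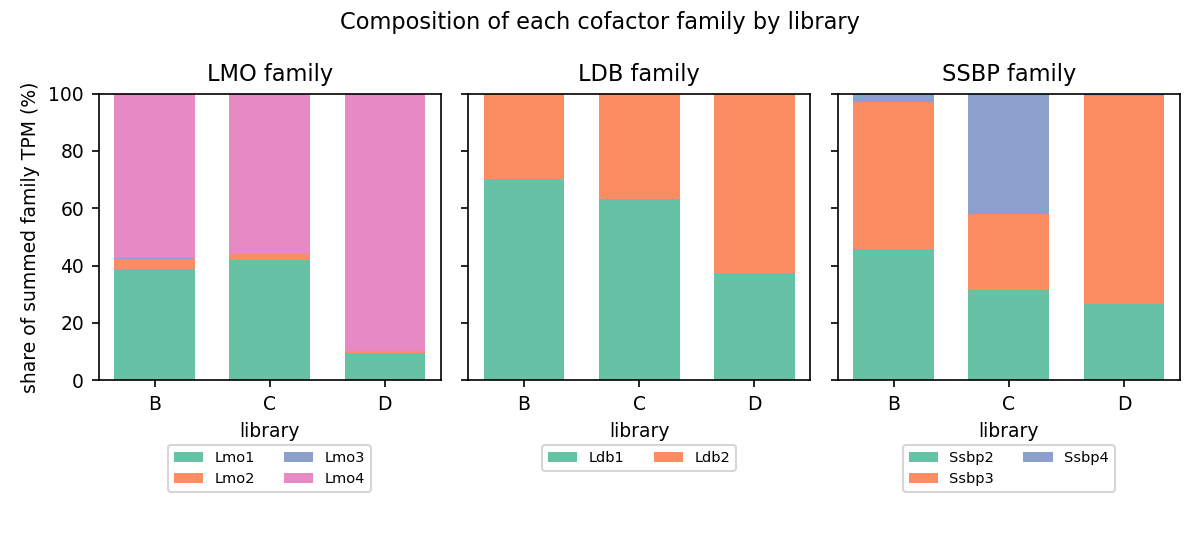
Share of the summed TPM of each family taken by each member, in percent, with 1 bar per library and panels for LMO, LDB and SSBP. Lmo4 fills 89.6% of the LMO bar in D, Ldb2 passes Ldb1 in D only, and Ssbp4 holds 41.9% of the SSBP bar in C against 2.91% in B and 1.04% in D.

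Order among the members was checked over 15 pairs, namely all neighbours in the order of mean TPM and all pairs within a family. A pair was taken to differ beyond the spread where the mean log2 difference exceeded its SD and had the same sign in 3 of 3 libraries, which held for 7 of 15 pairs. Of the neighbours, Lmo1 exceeded Ssbp4 (2.21 ± 1.80, SD, n = 3), Ldb2 exceeded Lmo2 (1.91 ± 1.43) and Lmo2 exceeded Lmo3 (3.06 ± 0.87). Lmo4 and Ssbp3 (0.45 ± 0.71), Ssbp3 and Ssbp2 (0.45 ± 0.87), Ssbp2 and Lmo1 (0.51 ± 1.02), Ssbp4 and Ldb1 (-0.79 ± 2.68) and Ldb1 and Ldb2 did not. The exact two-sided sign-flip test gave each of the 7 pairs p = 0.25, below which a test over 3 libraries cannot go (Benjamini-Hochberg adjusted p = 0.469 over the 15 pairs), so none could pass 0.05. Without library C, which holds the high Ssbp4 value, 12 pairs met the rule over the libraries left, where fewer signs need to be the same. The pairs gained included Ssbp2 with Lmo1 and Lmo4 with Lmo1, which do not involve Ssbp4. Lmo4 with Lmo1 met the rule only narrowly, with differences of 0.56 in B and 3.25 in D.

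Summed over families, LMO and SSBP messages stood at similar levels and LDB messages well below both. LMO genes summed to 100.3 TPM in B, 180 TPM in C and 258 TPM in D, SSBP genes to 129, 164 and 253 TPM, and LDB genes to 24.0, 21.9 and 42.2 TPM. LMO exceeded LDB by a log2 ratio of 2.57 ± 0.49 (SD, n = 3), or 4.18-fold (B), 8.22-fold (C) and 6.11-fold (D), and SSBP exceeded LDB in 3 of 3 libraries as well (LDB over SSBP -2.64 ± 0.24). LMO over SSBP was -0.37, 0.14 and 0.02, a mean of -0.07 ± 0.26 with signs that differ between libraries. In CPM SSBP exceeded LMO, with a mean log2 ratio of LMO over SSBP of -1.33.

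LIM homeodomain factors, which share the LDB interaction region with LMO proteins, were more abundant than all 3 cofactor families. The 12 genes summed to 695, 601 and 679 TPM in B, C and D, and Isl1 alone made up 90.4%, 87.5% and 91.3% of that. LMO over LIM homeodomain messages gave log2 ratios of -2.79 (B), -1.74 (C) and -1.40 (D), a mean of -1.98 ± 0.73 (SD, n = 3), and LDB over LIM homeodomain -4.55 ± 0.47. Of 6 family ratios, 5 had the same sign in 3 of 3 libraries, each with an exact sign-flip p = 0.25 (adjusted p = 0.30), the smallest possible. These are messages, and the amounts of protein were not measured.

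**Figure D3:**
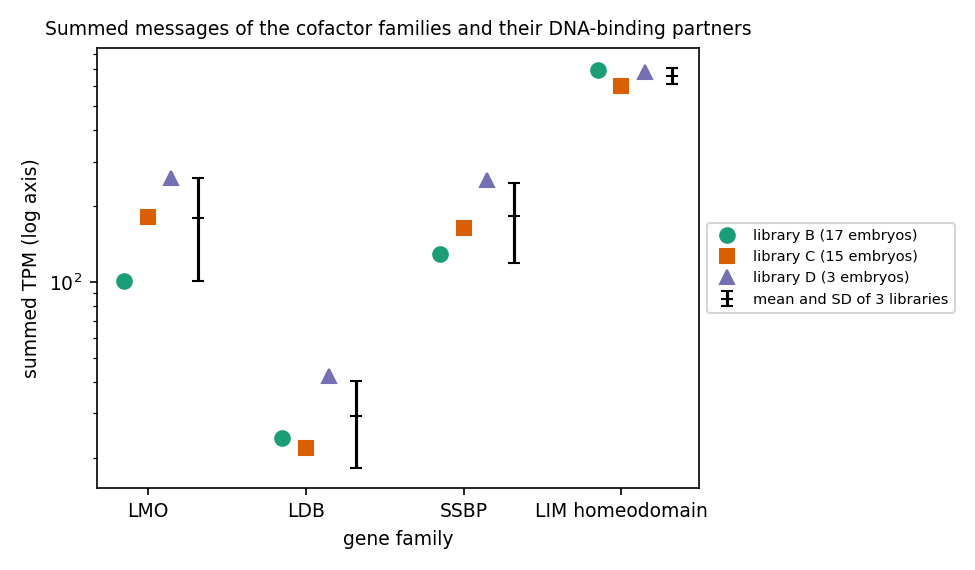
Summed TPM of the LMO, LDB and SSBP families and of 12 LIM homeodomain genes on a log axis, with a symbol for each library and the mean with its SD beside them. LIM homeodomain sums lie between 601 and 695 TPM, LMO and SSBP sums between 100.3 and 258 TPM, and LDB sums between 21.9 and 42.2 TPM.

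Of the 12 LIM homeodomain genes, 2 were detected, Isl1 at 591 ± 56.9 TPM (SD, n = 3) and Isl2 at 66.5 ± 8.25 TPM. The other 10 were under 1 TPM in every library, and Lhx5, Lhx8 and Lhx9 had no counts. A count of 0 allows up to 3 counts, or 0.166, 0.257 and 0.143 CPM in B, C and D. Among bHLH and GATA partners 7 of 12 were detected. Neurod1, a neuronal bHLH factor, was at 91.0 ± 59.0 TPM. Tcf3 and Tcf4, which encode E proteins, the general partners of such factors, were at 11.2 ± 3.48 and 9.74 ± 6.96 TPM. Neurod4 averaged 14.5 ± 16.5 TPM, but its level in B and C (6.66 and 3.29) lay below that of Tcf3 (8.07 and 14.9), and D alone (33.5) puts its mean higher. Without D the means were 60.2 TPM for Neurod1, 4.98 for Neurod4 and 5.97 for Tcf4.

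Of the LMO4 and LDB binding proteins 3 of 4 were detected: Deaf1 at 31.9 ± 9.08 TPM, Rlim, which encodes a ubiquitin ligase that targets LDB proteins, at 11.9 ± 10.4, and Rbbp8, the gene of CtIP, at 6.66 ± 4.02 TPM. All 4 genes of the Wnt complex were detected, at 11.8 ± 1.56 for Pygo2, 7.78 ± 4.61 for Bcl9, 3.97 ± 2.66 for Pygo1 and 2.20 ± 0.50 TPM for Bcl9l. Small LIM proteins outside the LMO family, which are mostly tied to the cytoskeleton, were detected for 9 of 12. Crip2 (957 ± 402 TPM), Crip1 (424 ± 259), Csrp2 (288 ± 71.9) and Csrp1 (71.8 ± 38.8) were the highest of these, and the first 3 stood above every LMO gene in the mean. Without D the means of Rlim, Rbbp8, Bcl9 and Pygo1 were 5.92, 4.34, 5.18 and 2.44 TPM, and without B that of Crip1 was 274 TPM.

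**Figure D4:**
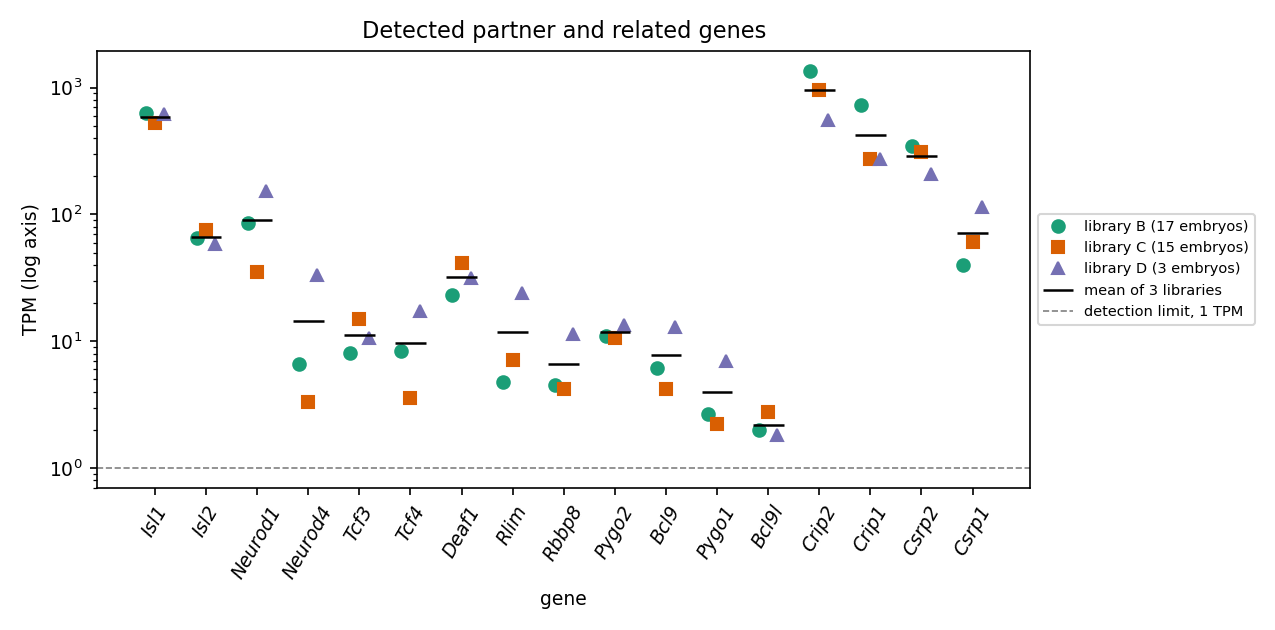
TPM on a log axis for the detected partner and related genes, at most 4 per list, with a symbol for each library, a bar at the mean and a dashed line at 1 TPM. Isl1 and Isl2 have tightly placed symbols (SD of 56.9 and 8.25 TPM), whereas Neurod4 and Rlim reach 33.5 and 23.9 TPM in D against 6.66 and 4.75 in B.

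Each library was then set against the other 2 with edgeR's quasi-likelihood test over 15727 genes, all 9 members included, to see which members stand apart in 1 pool. Each fit leaves 1 residual degree of freedom, takes the single library to have the same spread as the pair it is set against, and shares its libraries with the other fits. In C, 1 of 9 members passed, and it was higher; 0.782% of all genes tested passed, with 0.757% higher and 0.0254% lower. It was also the single member with an unadjusted p under 0.05, against 6.91% of all genes. That member was Ssbp4, with a log2 ratio of 4.75 ± 0.93 (approximate SE; edgeR, Benjamini-Hochberg adjusted p = 0.000613). Over 5 other settings its adjusted p ranged from 5.12e-06 to 0.00156. After length and GC trends were taken out, a setting chosen after seeing the data, the log2 ratio was 3.03 (adjusted p = 0.000571).

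In D no member passed, with 0 of 9 and 0% of all genes at edgeR's adjusted p of 0.05. At an unadjusted p under 0.05 there were 3 members, Lmo1 (-1.96 ± 0.66), Ssbp3 (1.04 ± 0.42) and Ssbp4 (-4.51 ± 1.79), against 19.4% of all genes. Lmo4 gave 0.83 ± 0.50 and Ldb2 1.09 ± 0.50 (edgeR adjusted p = 0.38 and 0.283), and Lmo2 -1.42 ± 0.73, Ldb1 -0.67 ± 0.49, Lmo3 -0.60 ± 1.23 and Ssbp2 -0.41 ± 0.41. In all, 3 members had a positive and 6 a negative ratio, with a median of -0.60; over all genes the median was -0.02 and 49.5% were positive. Ssbp4 passed in D with DESeq2 (adjusted p = 0.00523; 5.89% of genes passed) and without the filter on low counts (edgeR adjusted p = 4.96e-06; 6.51% passed). That ratio sets D against B and C together; against B alone D differed by -1.17 on the log2 scale of TMM-scaled CPM, and by -0.49 in log2 TPM. Several of these ratios changed when gene length or GC was taken into account. Both settings also moved the median log2 ratio of all genes in D, to -0.31 in each, so part of each change is shared by all genes. With the length trend removed Ssbp3 went from 1.04 to 0.24 (unadjusted p = 0.616) and Ssbp2 from -0.41 to -1.30 (unadjusted p = 0.0188, edgeR adjusted p = 0.207). With length and GC removed together Lmo1 was at -1.26, Ssbp2 at -1.41, Ssbp3 at 0.39 and Ssbp4 at -2.22, and none of the 9 members passed under either setting.

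Markers of several cell types also differed in summed level between D and the others. The 6 glia markers summed to 2665 TPM in B, 1246 TPM in C and 2614 TPM in D, the 8 neuron markers to 33803, 25281 and 19875, the 6 sensory neuron markers to 951, 784 and 1434, the 6 sympathetic markers to 277, 225 and 87.4, and the 6 mesenchyme markers to 20.1, 17.9 and 82.1 TPM. As TMM-scaled CPM the glia sums were 1966, 1046 and 1720, the neuron sums 33469, 26443 and 13170, the sensory neuron sums 2141, 1832 and 2180, the sympathetic sums 332, 255 and 64.5, and the mesenchyme sums 106, 100.3 and 303. By these sums D was low for neuron and sympathetic markers and high for mesenchyme markers on both scales. The neuron sum was mostly Tubb3 (17901, 9716 and 9265 TPM in B, C and D) and Stmn2, and single neuron markers differed. By TPM Tubb3, Stmn2, Gap43 and Prph were lowest in D, and Elavl3, Elavl4, Snap25 and Dcx were highest there. In the fit of D, on the TMM scale, 1 neuron marker (Dcx, 0.699) had a positive and 7 a negative log2 ratio. The mesenchyme sum in D was mostly Col1a2 (11.2, 8.42 and 53.0 TPM in B, C and D) and Col3a1 (4.30, 6.08 and 26.2). Col1a1 (2.87, 2.36 and 2.08 TPM) and Twist1 (1.03, 0.72 and 0.08) were lowest in D. In the fit of D, 3 mesenchyme markers had a positive and 3 a negative log2 ratio. For sensory neuron markers the sum of D stood well above B in TPM and near B as TMM-scaled CPM. No marker of these lists was at 0 in all libraries. The part of such cells in the values of Lmo1, Lmo4, Ldb2 and Ssbp3 in D was not tested. The partner lists had no gene that passed edgeR's test in either direction in any of the 3 fits.

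In B no member passed, with 0 of 9 and 0% of all genes. Ssbp4 was the member with an unadjusted p under 0.05 (-3.31 ± 1.33), against 1.11% of all genes. Its comparison group holds C, and without C the log2 ratio of B to D was 1.17. For the other 8 members the log2 ratios in B ran from -1.14 for Lmo4 to 1.35 for Lmo3.

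**Figure D5:**
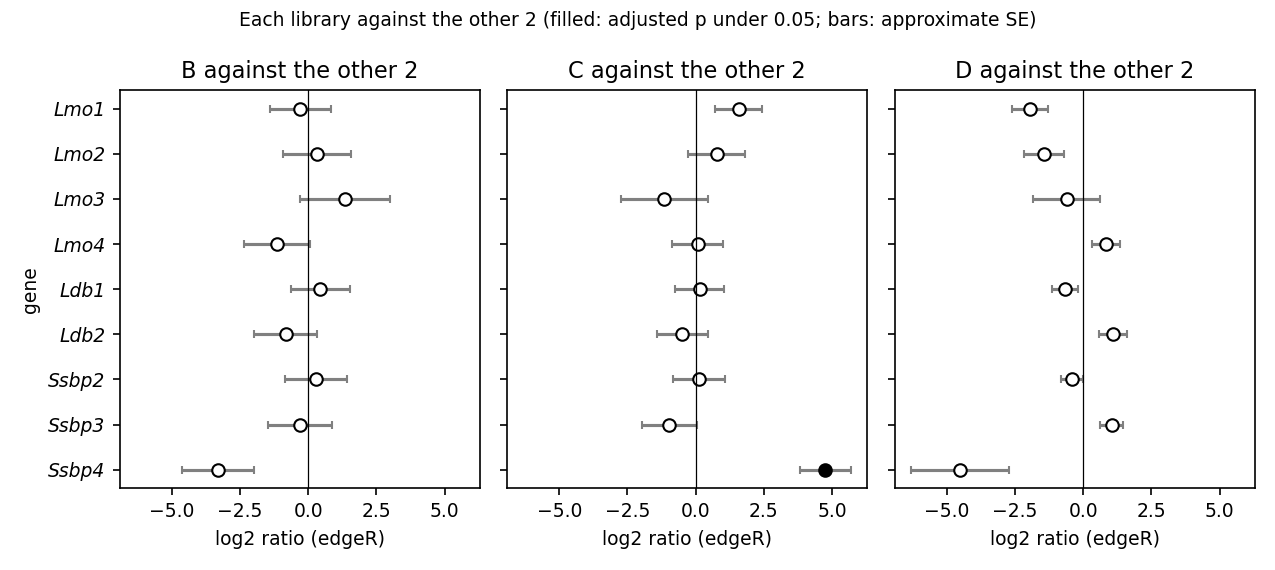
Log2 ratio of each library to the other 2 for the 9 members (edgeR), with bars for the approximate SE and filled points for an adjusted p under 0.05. The single filled point is Ssbp4 in C at 4.75, and in D the points of Lmo4, Ldb2 and Ssbp3 lie above 0 and the other 6 below.

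Spread between libraries differed among the members. Of the 8 detected members 5 varied at least 3-fold from lowest to highest TPM (Lmo1, Lmo4, Ldb2, Ssbp3 and Ssbp4), against 35.1% of detected genes, and 2 at most 1.5-fold (Ldb1 and Ssbp2), against 17.4%. As TMM-scaled CPM the counts were 2 (Lmo1 at 5.25-fold and Ssbp4 at 43.7-fold), against 26.6%, and 1 (Ssbp2), against 20.2%. Lmo1 and Ssbp4 were thus past the upper limit on both scales and Ssbp2 within the lower, and Lmo4, Ldb2, Ssbp3 and Ldb1 on 1 scale. Neither scale takes out the length trend, and taking it out lowers Ssbp2 in D as given above.

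For the highest member of each family by mean TPM, the genes nearest in pattern were taken from 28 candidates, the members and partner genes with 100 or more counts in the mean library. Likeness was the root mean square difference of log2(TPM + 0.1), centred over the 3 libraries, which a shift shared by all genes of a library does not alter. Nearest to Lmo4 were Csrp1 at 0.20, Rlim at 0.22 and Ldb2 at 0.28. Nearest to Ldb1 were Isl1 at 0.03, Ssbp2 at 0.12 and Pygo2 at 0.16. Nearest to Ssbp3 were Pygo1 at 0.20, Bcl9 at 0.20 and Tcf12 at 0.23. The length trend was not removed here. The counted models of Ssbp3, Pygo1, Bcl9 and Tcf12 held 6582, 7916, 8285 and 15529 bases, and the part of gene length in their likeness was not tested. With 3 libraries these distances are a description only.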

How the data were processed

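Sorted Ret-EGFP dorsal root ganglion cells were profiled in 3 libraries made, per the labels' protocols, from 10 ng of total RNA with a low-input cDNA kit that does not mark strand and 12 PCR cycles. The authors deposited per gene raw read counts, CPM and RPKM with exon coordinates and length; by the values, CPM is the count over the file total and RPKM that CPM per kilobase. Subread, featureCounts 1.4.5 and the build GRCm38.p2 appear in the submitters' processing notes without their roles; annotation release and strand setting: not given in the sources used here. The deposited counts were used throughout. Symbols matched 40254 of 41388 identifiers.

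TPM was computed over all genes of a file, with a pseudocount of 0.1 on the log scale. Pairs and family ratios used exact two-sided sign-flip tests. Libraries were compared with edgeR 4.0.16 (quasi-likelihood, TMM, filterByExpr, Benjamini-Hochberg threshold 0.05). The fit was also run on simulated counts with a shared mean profile, a fixed dispersion and no length or GC trend. Such counts do not measure its error rate on these pools. SEs are approximate, from the ratio and its F statistic. Alternatives were DESeq2 1.42.0, its size factors, no filter, trends in length and GC (mgcv 1.9.3; GC known for 99.0% of genes with a count), other limits and pseudocounts, CPM, protein-coding TPM and each library left out. Coding sequences came from GENCODE and promoters from RefSeq (7 of 9 members matched). All 9 members were named, up to 4 detected genes with the highest mean TPM of each partner list, and the 3 genes nearest in pattern. The members and lists were chosen with earlier results of these data known. Where the sign was the same in 3 of 3 libraries the sign-flip p was 0.25 whatever the spread. The edgeR p-values rest on the pair of libraries and on dispersion shared across genes, and the spread of the single library is assumed. Intervals reflect counting error alone, since amplified reads that carry no molecular identifier are not separate molecules.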

Additional observations from a re-analysis of the deposited data

How the results depend on the processing

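Of 400 alternatives, 38 moved and 2 passed where the first setting did not. Levels, differences and log2 ratios were taken to move beyond their SD or approximate SE. Counts and ranges were taken to move beyond 1.5-fold or from 0. In 16 alternatives the sign changed, 12 of them with 1 library left out, and none of the values concerned had passed. Among these Lmo4 over Ssbp3 was -0.55 in CPM, and without C Ssbp4 in B went from -3.31 to 1.17 and Lmo1 in B from -0.30 to 1.34. Members detected stayed between 6 and 8 at limits of 0.5 to 5 TPM. In CPM, without length, log2 ratios of sums moved to -1.33 for LMO over SSBP, -3.64 for LDB over SSBP and -1.19 for SSBP over LIM homeodomain genes. Pairs that differed beyond the spread numbered 7 to 12 with 1 library left out, where fewer signs need to be the same. The highest number was without C, and CPM gave 10. Genes called in D, 0 at first (3046 at an unadjusted p under 0.05), were 8 once DESeq2's size factors replaced TMM, 1534 without the filter on low counts, 28 with the length trend removed, 25 with length and GC removed and 688 in DESeq2; the cause was not tested. Members called in D came to 1, Ssbp4, with no filter and with DESeq2. In B, 0 genes (174 unadjusted) became 1 with the length trend removed, 3 with length and GC removed and 1 with DESeq2. In C, 123 became 249 and 281 with these trends removed. Removing the length trend moved the median log2 ratio of all genes from -0.02 to -0.31 in D, from -0.18 to -0.01 in B and from -0.11 to 0.07 in C. Ssbp3 in B turned from -0.30 to 0.22 with the length trend removed and 0.066 with GC besides, and Ldb1 in C from 0.14 to -0.10 with both; none of these passed. Alternatives with GC, the median TPM and TMM-scaled CPM were chosen after seeing the data. A fit of 1 library against 1 has no residual degree of freedom, so that leaving out a library gives a ratio of TMM-scaled CPM with no test. No paired analysis was possible because the series has a single group. Lmo3 had at most 20 counts, so its ratios between libraries rest on few reads. Its upper Poisson limits (0.68, 0.34 and 0.54 TPM in B, C and D) all stayed under 1 TPM.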
